A study of Drosophila melanogaster with 6 samples.

Results

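Expression in S2 cells after RNA interference (RNAi) against CG9740 was compared with expression after RNAi against LacZ. S2 is a Drosophila melanogaster line of embryonic origin with properties of hemocytes, the blood cells of the fly. The comparison uses the 2 arrays of CG9740 RNAi and the 2 arrays of LacZ RNAi, which are 4 of the 6 arrays of the series, and it covers 18769 of 18952 probe sets after 183 control probe sets were set aside. The remaining 2 arrays are from CP190 RNAi, and their values stand beside those of CG9740 RNAi. All 3 groups were S2 cells that received RNAi, including the LacZ group, which the series design names as the control, and the arrays of a group are called biological replicates there. LacZ encodes a beta-galactosidase of bacteria. The sources used here do not give the RNAi reagent, the length of treatment or a measure of the protein.

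CG9740 is the locus tag of Ibf2, which encodes Insulator binding factor 2. Ibf2 and its partner Ibf1 are zinc finger proteins that bind DNA, associate with each other and recruit CP190, a protein of chromatin insulators and of centrosomes. Insulators are stretches of DNA with bound proteins that limit the action of enhancers or of silent chromatin on neighbouring promoters, and CP190 is shared by most of the known insulator complexes of the fly.

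Values are log2 expression per probe set, so a difference of 1 is a 2-fold difference in signal. The arrays had medians of 5.69 to 5.74 on this scale, and between 45.8% and 46.3% of the probe sets of an array exceeded the brightest control for a Bacillus gene (6.07). The Bacillus controls measure bacterial transcripts that fly cells do not make, and 6.07 serves here as the limit below which a level is called dim. A dim level gives no exact fold. Of the hemocyte markers, 12 of 14 genes lay above this limit in LacZ RNAi. The phagocytosis receptor eater read 10.69 and 10.28 and the clotting protein Hemolectin (Hml) 9.93 and 10.38 on the LacZ arrays, while NimC1 was dim at 5.10 and 5.19. Of the measured markers of other cell types, 3 of 5 lamellocyte, 1 of 4 crystal cell, 3 of 6 neuron, 2 of 6 muscle, 2 of 6 germline and 0 of 6 fat body genes exceeded the limit.

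The transcript of the RNAi target fell. Ibf2 (probe set 1639645_at) read 9.30 and 9.64 on the LacZ arrays and 7.05 and 7.30 on the CG9740 arrays. Both CG9740 arrays lay far below both LacZ arrays. The log2 change was -2.29 (SE 0.14, 95% interval -2.62 to -1.97, limma adjusted p 0.00145), a 4.90-fold fall of the transcript signal. Its level was 9.33 and 9.52 in CP190 RNAi, within the range of the LacZ arrays. The call of Ibf2 held without any 1 array and in every alternative fit, with log2 changes of -2.46 to -2.12.

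The partner gene moved the other way. Ibf1 (1630527_at) read 8.58 and 8.57 in LacZ RNAi and 9.57 and 9.39 in CG9740 RNAi, so the groups did not overlap, as was the case for 40.4% of all probe sets. The rise was 1.88-fold, with a log2 change of 0.91 (SE 0.09, 95% interval 0.69 to 1.12, limma adjusted p 0.0248). In CP190 RNAi Ibf1 read 8.50 and 8.52, a log2 change of -0.07. The size of the Ibf1 rise moved little, between 0.82 and 1.0 without any 1 array. Its call was lost without CG9740 replicate 2 (1.0), LacZ replicate 1 (0.91), LacZ replicate 2 (0.90) or either CP190 replicate (0.91, limma adjusted p 0.151). With the replicate block the adjusted p of limma was 0.159 at the same log2 change.

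**Figure D1:**
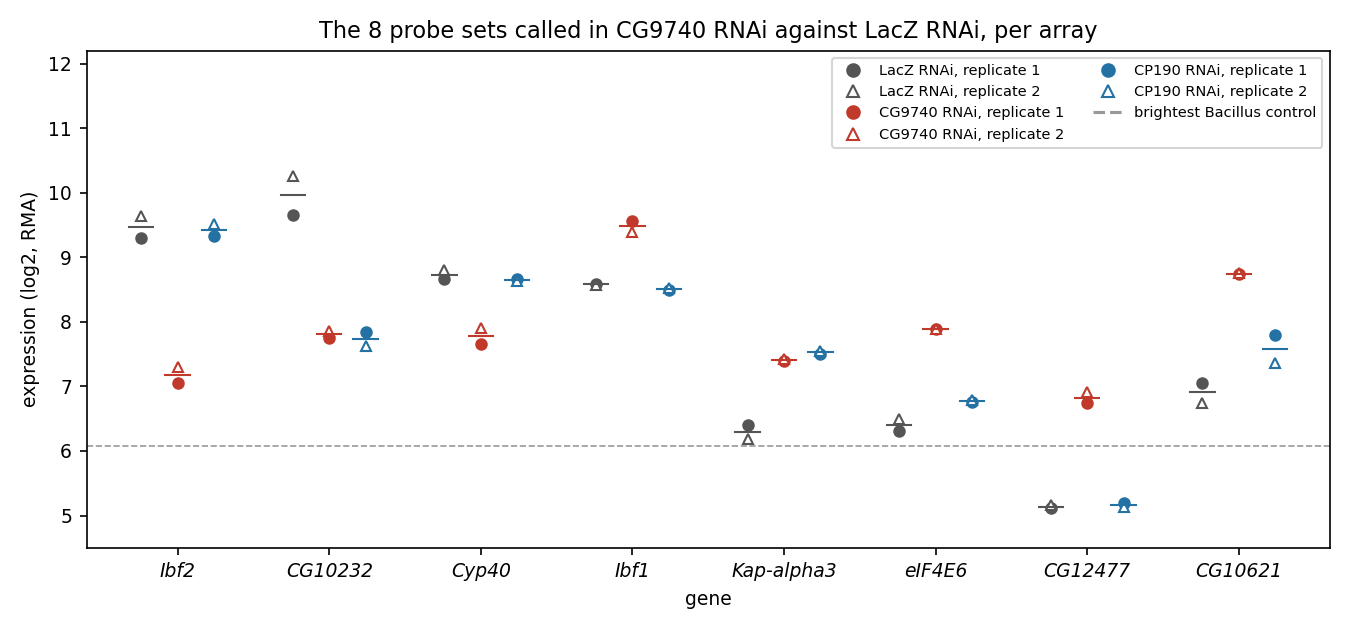
Log2 expression (vertical axis) of the 8 called probe sets, named by gene along the horizontal axis, on each array of LacZ, CG9740 and CP190 RNAi. Filled circles are replicate 1, open triangles replicate 2, bars are group means (n = 2) and the dashed line is the brightest Bacillus control at 6.07. The CG9740 arrays lie below the LacZ arrays for Ibf2, CG10232 and Cyp40 and above them for the other 5 genes.

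Of all tested probe sets 5 rose and 3 fell at a limma adjusted p under 0.05, which is 0.0426% of those tested (0.0266% higher and 0.0160% lower). All 8 carry a gene name. Beside Ibf2 and Ibf1 they are CG12477, eIF4E6, CG10621 and Kap-alpha3, which rose, and CG10232 and Cyp40, which fell. In the Release 6 annotation 5 of the 8 genes lie on arm 3R (Ibf2, Ibf1, CG10232, eIF4E6 and Kap-alpha3), Cyp40 and CG12477 lie on 3L and CG10621 on 2L. Arm 3R holds 25.2% of the 13543 probe sets placed on a chromosome, and Ibf2 and Ibf1 are adjacent genes there. Leaving out CG9740 replicate 1 gave 43 calls, and leaving out CG9740 replicate 2 gave 3. There were 4 calls without LacZ replicate 2, 5 without either CP190 replicate and 4 with the replicate block.

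CG12477 (1623456_at) was dim in the control, at 5.11 and 5.16, and read 6.74 and 6.91 in CG9740 RNAi. Both knockdown arrays crossed the limit of 6.07, and both control arrays stayed below it. The log2 change was 1.69 (SE 0.09, 95% interval 1.48 to 1.90, limma adjusted p 0.00141). In CP190 RNAi it stayed dim, at 5.20 and 5.14.

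eIF4E6 encodes a member of the eIF4E family, the proteins that bind the cap of mRNAs at the start of translation. Its probe set 1633137_at read 6.31 and 6.50 in LacZ RNAi and 7.89 on both arrays of CG9740 RNAi. This 2.80-fold rise (log2 change 1.49, SE 0.09, 95% interval 1.27 to 1.70, limma adjusted p 0.00145) left the groups well apart. In CP190 RNAi it read 6.76 and 6.79, a log2 change of 0.37 (limma adjusted p 0.387). The family was looked up after this value was seen. Its other 7 probe sets, for 6 further genes, had log2 changes of -0.31 to 0.16. The general cap-binding factor eIF4E1 (1629970_s_at) read 11.77 and 11.71 in LacZ RNAi and 11.75 and 11.78 in CG9740 RNAi.

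CG10621 (1626086_at) read 7.06 and 6.75 in LacZ RNAi and 8.74 and 8.75 in CG9740 RNAi. The 3.58-fold rise had a log2 change of 1.84 (SE 0.16, 95% interval 1.48 to 2.20, limma adjusted p 0.00847). Its CP190 arrays, at 7.80 and 7.37, lay between the other groups, with a log2 change of 0.68 (limma adjusted p 0.300). The call of CG10621 was lost without CG9740 replicate 2 (1.83) or LacZ replicate 2 (1.68).

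Kap-alpha3 encodes importin alpha 3, an adaptor that carries proteins with a nuclear localisation signal into the nucleus. Its probe set 1635566_s_at read 6.40 and 6.18 in LacZ RNAi, 7.40 and 7.42 in CG9740 RNAi and 7.51 and 7.55 in CP190 RNAi. Both knockdowns lay above both control arrays, which the knockdowns share. The log2 change in CP190 RNAi was 1.25 (limma adjusted p 0.00751). The rise in CG9740 RNAi was 2.18-fold, with a log2 change of 1.12 (SE 0.10, 95% interval 0.90 to 1.35, limma adjusted p 0.00884). The call was lost without CG9740 replicate 2 (1.11), LacZ replicate 2 (1.01) or either CP190 replicate (1.12), and with the replicate block (limma adjusted p 0.0857). The other importin alpha genes, looked up after this value was seen, had log2 changes of -0.07 (Kap-alpha1) and -0.02 (Pen).

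CG10232 (1637358_at) read 9.66 and 10.26 in LacZ RNAi and 7.75 and 7.86 in CG9740 RNAi. Its 4.44-fold fall (log2 change -2.15, SE 0.18, 95% interval -2.57 to -1.74, limma adjusted p 0.00847) was close in size to that of the RNAi target. In CP190 RNAi it read 7.84 and 7.63, a log2 change of -2.22 (limma adjusted p 0.00751) against the same LacZ arrays. Its LacZ arrays differed by 0.60, the widest gap between replicates among the called probe sets. The call was lost without CG9740 replicate 2 (-2.20) or either CP190 replicate (-2.15), and with the replicate block (limma adjusted p 0.0744). Without LacZ replicate 1 the log2 change was -2.45 and without LacZ replicate 2 it was -1.85.

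Cyp40 encodes cyclophilin 40, a prolyl isomerase that works with the chaperone Hsp90. Its probe set 1635293_s_at read 8.66 and 8.81 in LacZ RNAi, 7.66 and 7.90 in CG9740 RNAi and 8.67 and 8.63 in CP190 RNAi. The fall in CG9740 RNAi was 1.93-fold (log2 change -0.95, SE 0.11, 95% interval -1.20 to -0.71, limma adjusted p 0.0451). This was the call nearest to the threshold, and it was lost without any 1 of the 6 arrays, with log2 changes of -1.07 to -0.83 and limma adjusted p-values of 0.0542 to 0.402. It was also lost when dim probe sets were left out (limma adjusted p 0.0612) and with the replicate block (0.159). The ending _s_at of the Cyp40 and Kap-alpha3 probe sets marks probes that can match transcripts of more than 1 gene.

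A direct test in the same fit showed where CG9740 RNAi differed from CP190 RNAi, and 5 of the 8 probe sets passed it, as did 0.0799% of all probe sets. Ibf2 was lower in CG9740 RNAi by a log2 difference of -2.25 (limma adjusted p 0.00105) and Cyp40 by -0.87 (0.0463). Ibf1 was higher by 0.97 (limma adjusted p 0.0121), CG12477 by 1.66 (5.51e-04) and eIF4E6 by 1.12 (0.00792). CG10621 missed the threshold at 1.16 (limma adjusted p 0.0613). Kap-alpha3 and CG10232 had differences of -0.12 and 0.07 (limma adjusted p 1.0 each). The direct test rests on the same CG9740 arrays as the calls, so it is no independent check of them.

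**Figure D2:**
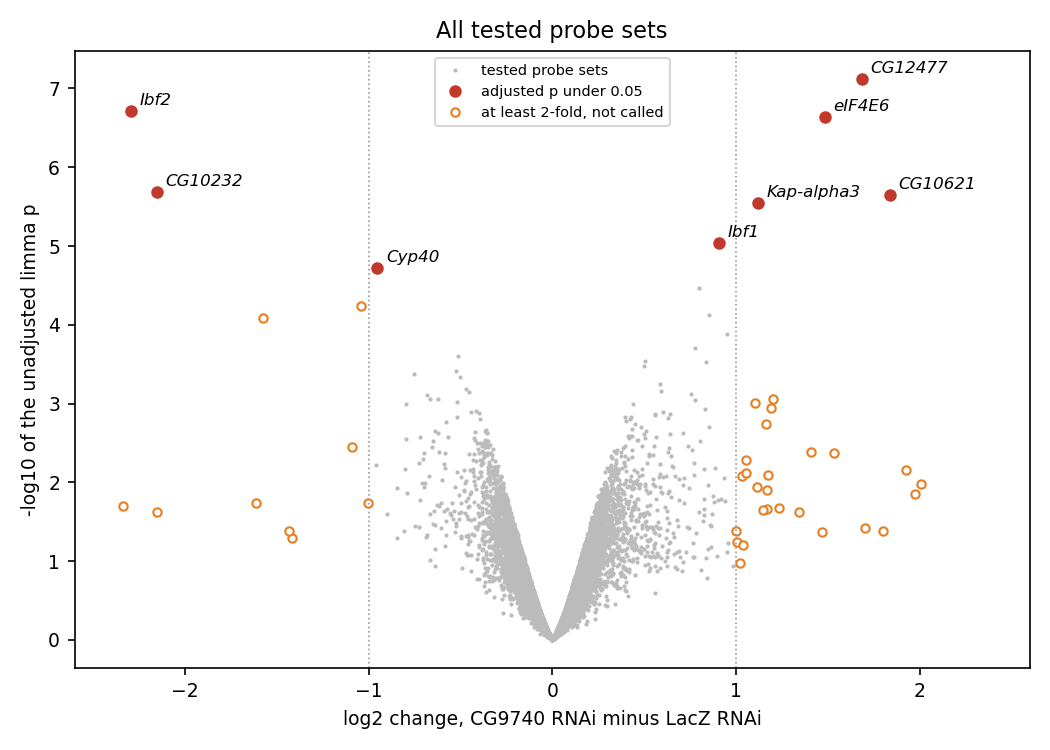
Log2 change of each tested probe set (horizontal axis, CG9740 RNAi minus LacZ RNAi, n = 2 each) against -log10 of its unadjusted limma p (vertical axis). Filled red points are the 8 called probe sets, open orange points the 35 that differed at least 2-fold without a call, and dotted lines mark log2 changes of -1 and 1.

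Ibf2 and Ibf1 are direct neighbours on arm 3R, and the genes around them were read off to see whether the differences reached further. Of the 10 annotated genes within 5 positions of Ibf2, 9 were measured, by 11 probe sets. Apart from Ibf1 none had an unadjusted p under 0.05, a level that 8.59% of all probe sets passed (4.04% higher and 4.55% lower). CG16736, the neighbour on the side away from Ibf1, was dim, with values of 4.62 and 4.62 in LacZ RNAi and 4.85 and 4.80 in CG9740 RNAi (log2 change 0.21, 95% interval -0.03 to 0.44). ATP6AP2, an accessory protein of the vacuolar ATPase and the neighbour beyond Ibf1, read 11.89 and 11.90 in LacZ RNAi and 11.78 and 11.79 in CG9740 RNAi (log2 change -0.11, 95% interval -0.29 to 0.08). The intervals of all 8 probe sets for the other 6 measured neighbours included 0.

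The neighbours of the other called genes were read off in the same way after those calls were known. At the Kap-alpha3 locus 4 of 9 measured neighbours had an unadjusted p under 0.05, all with higher values in CG9740 RNAi, and none was called. Over all probe sets 4.04% were higher at this level. CG8301 (1641287_at), the second gene on one side, read 4.75 and 4.79 in LacZ RNAi, 5.37 and 5.73 in CG9740 RNAi and 5.56 and 5.61 in CP190 RNAi. It was dim on every array, with a log2 change of 0.78 in CG9740 RNAi (SE 0.12, limma adjusted p 0.264). Son, which lies between CG8301 and Kap-alpha3, read 7.32 and 7.28 in LacZ RNAi and 7.20 and 7.45 in CG9740 RNAi.

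On the other side of Kap-alpha3, CG9399 (1638009_s_at) read 9.37 and 8.86 in LacZ RNAi, 9.44 and 9.82 in CG9740 RNAi and 9.60 and 9.54 in CP190 RNAi. The next gene, CG9396 (1641627_at), read 5.97 and 5.43, 6.15 and 6.49, and 6.40 and 6.32 in the same order. Neither of these genes had overlapping CG9740 and LacZ arrays, as was the case for 40.4% of all probe sets. For CG9399 the nearest arrays of the groups read 9.44 and 9.37. The limma adjusted p was 0.580 for each gene, at log2 changes of 0.52 and 0.62. Vps45, an SM protein of endosomal membrane fusion 5 positions away, had a log2 change of 0.25.

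Around the remaining called genes fewer neighbours passed an unadjusted p under 0.05, a level that 8.59% of all probe sets passed. There were 2 of 10 probe sets at Cyp40, 1 of 6 at CG10621 and 0 at CG12477, eIF4E6 and CG10232, where 7, 6 and 4 probe sets were measured. At Cyp40 they were CG3335 with a log2 change of 0.31 and Or67b, an odorant receptor gene, with 0.23. At CG10621 it was Bhmt, named for betaine-homocysteine methyltransferase, which read 8.71 and 8.59 in LacZ RNAi and 8.93 and 8.98 in CG9740 RNAi (log2 change 0.31).

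**Figure D3:**
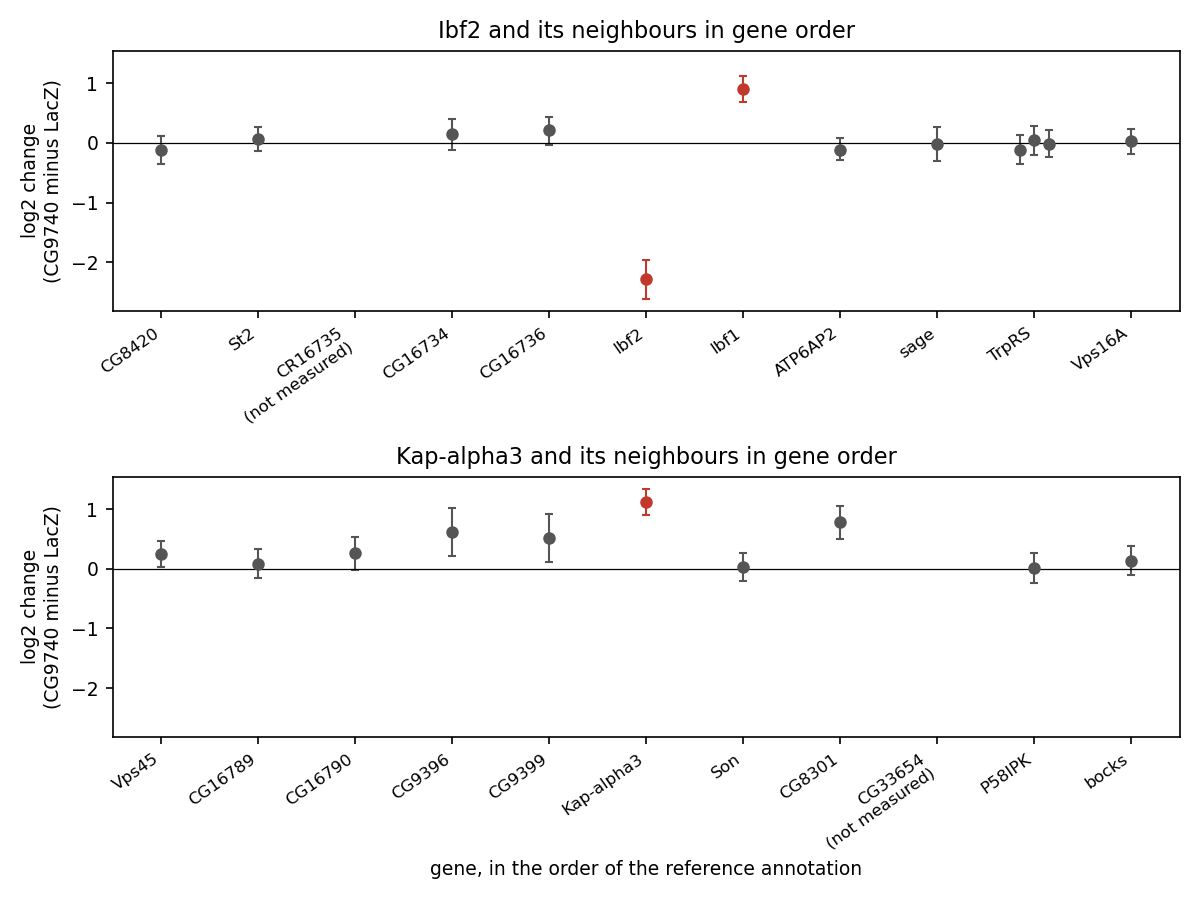
Log2 change with its 95% interval (vertical axis, CG9740 RNAi minus LacZ RNAi, n = 2 each) for Ibf2 (top) and Kap-alpha3 (bottom) and the 5 annotated genes on each side, in gene order without distances along the horizontal axis. Red points were called; around Ibf2 only Ibf1 stands off 0, and around Kap-alpha3 the points of CG9396, CG9399 and CG8301 lie at 0.52 to 0.78.

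Transcripts of the other insulator proteins were measured to see whether loss of the Ibf2 transcript went with changes in them. The list held 20 genes, of which 17 were measured by 40 probe sets, and Ibf1 and Ibf2 were its only calls. The median log2 change of the list was -0.10, against -0.02 over all tested probe sets. Of its 40 probe sets 22 are for mod(mdg4), and with 1 probe set per gene the median was -0.08. Cp190 (1631940_s_at) read 11.81 and 11.92 in LacZ RNAi and 11.80 and 11.54 in CG9740 RNAi. The log2 change of Cp190 was -0.19, with a 95% interval of -0.44 to 0.05 (limma adjusted p 0.633). In CP190 RNAi the same probe set read 9.71 and 9.72.

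Beside Ibf1 and Ibf2, the DNA-binding insulator proteins gave intervals that included 0. su(Hw), which binds the gypsy insulator, had a log2 change of -0.21 (95% interval -0.55 to 0.14), and BEAF-32, the boundary element factor, had -0.06 (-0.25 to 0.13). CTCF was measured by 3 probe sets with changes of -0.18, -0.08 and -0.02. The sign of the smallest turned without CG9740 replicate 2 (0.20) or LacZ replicate 2 (0.21). Trl, which encodes GAGA factor, had -0.03 (95% interval -0.26 to 0.20), pita -0.16 (-0.40 to 0.08), ZIPIC -0.13 (-0.33 to 0.07), Clamp -0.12 (-0.33 to 0.10) and M1BP -0.05 (-0.24 to 0.14).

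The remaining list members were also without a call. Chro, which encodes Chromator, had a log2 change of -0.24 (95% interval -0.57 to 0.09), insv 0.22 (-0.07 to 0.50) and dwg, the gene of the Zw5 insulator protein, 0.04 (-0.18 to 0.26). Elba2 and Elba3 were dim, with changes of 0.04 and -0.04. mod(mdg4), a gene with many isoforms whose proteins join the gypsy insulator, was covered by 22 probe sets with changes of -0.28 to -0.01 and a median of -0.12. Leaving out a replicate 1 moved that median to -0.22 (CG9740) or -0.21 (LacZ), and leaving out a replicate 2 moved it to -0.02 or -0.01. The lowest of these probe sets, 1638041_at, was dim, and its 95% interval of -0.47 to -0.09 did not include 0 (limma adjusted p 0.580).

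Large differences without a call were more frequent than calls. At least 2-fold differences were seen in 41 probe sets (0.218% of those tested), 30 higher (0.160%) and 11 lower (0.0586%) in CG9740 RNAi, and 6 of them were called. Among the 35 others, 34 had a gap of more than 0.5 between the replicates of CG9740 RNAi or of LacZ RNAi. Their median gap was 1.09 in CG9740 RNAi and 0.97 in LacZ RNAi, against 0.10 and 0.11 over all probe sets. A wide gap works against a call, so taking large differences without a call favours wide gaps. How far this accounts for the gaps was not tested. Of the 26 that were higher without a call, 24 had CG9740 replicate 2 above replicate 1 and LacZ replicate 1 above replicate 2, an order found in 27.4% of all probe sets. Of the 9 that were lower, 8 had the reverse order, which 28.2% of all probe sets showed. The part of these array differences in the group differences was not tested.

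Lgr4 encodes a leucine-rich repeat receptor related to relaxin receptors. Both of its probe sets had high log2 changes, and 1635672_at had the highest of all tested probe sets. It read 7.49 and 5.63 in LacZ RNAi and 7.85 and 9.29 in CG9740 RNAi, and 1638557_at read 7.94 and 6.38, and 8.39 and 9.78. The groups were parted by under 0.5 while the replicates of each group lay further apart than that. The log2 changes of 2.01 (SE 0.60) and 1.92 (SE 0.54) did not pass the test (limma adjusted p 0.580 each). The CP190 arrays read 8.45 and 7.97 for the first and 8.89 and 8.50 for the second.

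PGRP-SB1, a secreted peptidoglycan recognition protein of the immune response, read 7.67 and 6.46 in LacZ RNAi and 7.96 and 10.12 in CG9740 RNAi. Its log2 change was 1.98 (SE 0.63, limma adjusted p 0.580), and it varied with the array left out. Without CG9740 replicate 1 the log2 change was 3.06, and without CG9740 replicate 2 it was 0.90, each with 1 CG9740 array left. Without LacZ replicate 1 it was 2.58 and without LacZ replicate 2 it was 1.38, each with 1 LacZ array left. The other 6 measured genes of the family, looked up after this value was seen, had log2 changes of -0.09 to 0.17.

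Glutathione S-transferases of the delta class conjugate glutathione to reactive compounds and are known for their response to oxidative stress. GstD2 (1630258_at) read 6.85 and 6.53 in LacZ RNAi, 7.53 and 8.92 in CG9740 RNAi and 8.22 and 7.68 in CP190 RNAi. GstD5 (1634152_at) read 7.35 and 7.10, 8.04 and 8.81, and 8.27 and 7.90 in the same order. The log2 changes in CG9740 RNAi were 1.53 (SE 0.39) for GstD2 and 1.20 (SE 0.23) for GstD5, with no call (limma adjusted p 0.580 and 0.543). Without CG9740 replicate 1 the changes were 2.23 and 1.58, and without CG9740 replicate 2 they were 0.84 and 0.82.

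The whole GstD gene group was looked up after GstD2 and GstD5 had been seen. Of its 11 genes, 5 had an unadjusted p under 0.05, all higher in CG9740 RNAi, as were 4.04% of all probe sets. None of the 11 was called. Beside GstD2 and GstD5, whose values prompted the lookup, the 5 held GstD1 with a log2 change of 0.63, GstD3 with 0.76 and GstD6 with 0.61. GstD8 and GstD11 were at -0.09 and 0.05. The genes are close paralogs, and how far their probes match each other was not tested.

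Ect3, a beta-galactosidase gene, read 9.43 and 7.85 in LacZ RNAi and 9.48 and 10.48 in CG9740 RNAi, so the groups were parted only narrowly. CG31313 read 5.65 and 5.59 in LacZ RNAi and 6.36 and 7.71 in CG9740 RNAi. It was dim in the control, had a log2 change of 0.05 in CP190 RNAi and one of 1.41 (SE 0.36, limma adjusted p 0.580) in CG9740 RNAi. Without CG9740 replicate 1 its change was 2.08, and without CG9740 replicate 2 it was 0.74.

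Among the lower probe sets without a call, 2 came with a small replicate gap in the control. DAAM, a formin that assembles actin filaments, read 7.28 and 7.45 in LacZ RNAi, 6.11 and 5.48 in CG9740 RNAi and 5.66 and 6.13 in CP190 RNAi (1629015_a_at, log2 change -1.57, SE 0.22, limma adjusted p 0.127). CG33307 read 11.15 and 11.10 in LacZ RNAi, 10.10 and 10.07 in CG9740 RNAi and 9.58 and 10.01 in CP190 RNAi (1623813_at). Against the same LacZ arrays its log2 change in CP190 RNAi was -1.33 (limma adjusted p 0.0219). Its log2 change of -1.04 (SE 0.14) in CG9740 RNAi missed the threshold at a limma adjusted p of 0.107, the lowest among the at least 2-fold differences that were not called. It was called without either CP190 replicate (limma adjusted p 0.0479). DAAM had a log2 change of -1.89 without CG9740 replicate 1 and of -1.26 without CG9740 replicate 2.

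The other lower probe sets varied more between replicates. Argk1, the arginine kinase that buffers ATP, read 10.27 and 11.17 in LacZ RNAi and 9.83 and 9.43 in CG9740 RNAi (log2 change -1.09, SE 0.27). MFS3, a transporter of the major facilitator superfamily, read 8.16 and 9.89, and 7.96 and 6.87 (log2 change -1.61, SE 0.55). CG34330 read 11.23 and 12.10, and 10.85 and 8.18 (log2 change -2.15, SE 0.77). The lowest change of all tested probe sets, -2.34, came from 1635227_at, which the annotation ties to no gene and which read 9.89 and 11.53, and 9.58 and 7.16. The limma adjusted p was 0.580 for each.

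**Figure D4:**
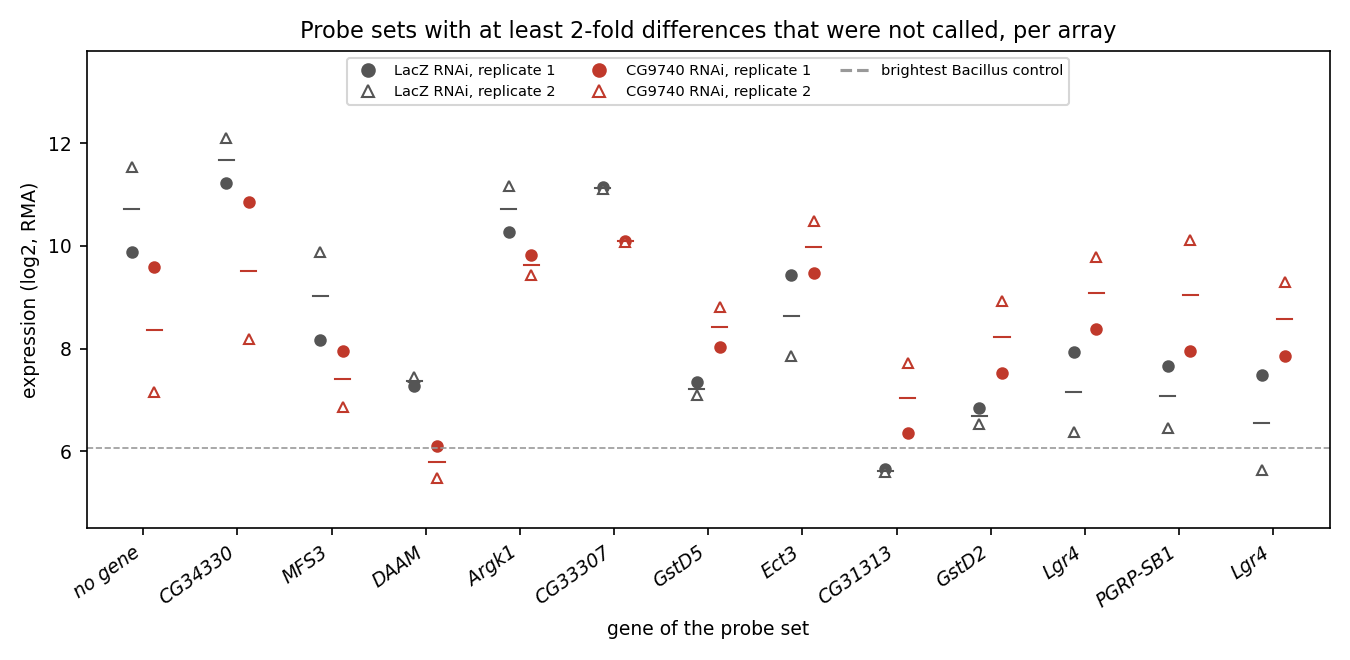
Log2 expression (vertical axis) of 13 probe sets that were not called, taken from the up to 10 largest rises and 10 largest falls of at least 2-fold with groups apart and the higher mean above 6.07, named by gene along the horizontal axis, on each LacZ and CG9740 array. Filled circles are replicate 1, open triangles replicate 2, bars are group means (n = 2) and the dashed line is the brightest Bacillus control at 6.07. For Lgr4, PGRP-SB1 and Ect3 replicate 2 is the highest of the CG9740 arrays and the lowest of the LacZ arrays.

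Gene lists for chromatin, stress, immunity and the cell cycle were examined beside these single genes. In 13 of the 14 lists no probe set was called, the exception being the insulator proteins with Ibf1 and the RNAi target Ibf2. Of all probe sets 0.0426% were called, so at that rate most lists of this size would hold no call. The list medians lay between -0.11 and 0.28. Cohesin and condensin (14 genes measured) had log2 changes of -0.21 to 0.04, the Polycomb and Trithorax groups (18 genes) of -0.16 to 0.15, and cell cycle and replication genes (18 genes) of -0.21 to 0.04. None of the probe sets of these 3 lists had an unadjusted p under 0.05, a level that 8.59% of all probe sets passed. The homeotic genes were mostly dim, with 1 of 7 measured genes above the limit.

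The RNA interference machinery was of interest because every group received RNAi. Its 10 measured genes had log2 changes of 0.01 to 0.19, and Dcr-2, the Dicer that cuts long double-stranded RNA, read 10.80 and 10.79 in LacZ RNAi and 10.97 and 11.01 in CG9740 RNAi (log2 change 0.19, unadjusted limma p 0.0453). The 5 measured heat shock genes had changes of -0.14 to 0.21. Centrosome and spindle genes, to which CP190 is linked, had changes of -0.35 to 0.12 over 17 genes, with spd-2 lowest.

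The antimicrobial peptide genes had the list median farthest from 0, at 0.28 over 7 measured genes. Of these, 3 had higher and 1 lower values at an unadjusted p under 0.05, against 4.04% higher and 4.55% lower over all probe sets. The list median per array was 8.90 and 9.34 in LacZ RNAi and 9.30 and 9.70 in CG9740 RNAi, so these medians overlapped. DptB, a diptericin, read 8.57 and 8.75 in LacZ RNAi, 9.30 and 9.70 in CG9740 RNAi and 8.92 and 8.83 in CP190 RNAi (log2 change 0.84, SE 0.14, limma adjusted p 0.330). edin, a secreted peptide induced by infection, read 9.69 and 9.68, 10.26 and 10.62, and 9.92 and 9.61 (log2 change 0.76, SE 0.14, limma adjusted p 0.540). Both genes were named because they differed at least 1.5-fold with CG9740 and LacZ arrays apart, as did 0.778% of all probe sets. Their CG9740 arrays also lay above the CP190 arrays. Without CG9740 replicate 1, which left 1 array in that group, the change of DptB was 1.04. That left-out array, at 9.30, is the CG9740 array nearer to LacZ RNAi, so leaving out replicate 2 (9.70) instead gives a smaller change.

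The rest of the peptide list was mixed. Mtk, which encodes Metchnikowin, read 10.40 and 10.41 in LacZ RNAi and 10.80 and 11.13 in CG9740 RNAi (log2 change 0.56). Def, the defensin gene, was dim with a change of -0.20. Drs, which encodes Drosomycin, read 8.29 and 9.34 in LacZ RNAi around 9.07 and 9.04 in CG9740 RNAi, and CecB, a cecropin gene, had a change of -0.05.

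The hemocyte markers held the collagen IV genes, whose products hemocytes secrete into basement membranes. Over the 14 genes the median log2 change was -0.16. Of their 15 probe sets 3 were lower and 0 higher at an unadjusted p under 0.05. Over all probe sets 4.55% were lower and 4.04% higher at this level. Col4a1 (1630150_s_at) read 9.78 and 9.98 in LacZ RNAi, 9.37 and 8.47 in CG9740 RNAi and 9.40 and 9.76 in CP190 RNAi (log2 change -0.96, SE 0.26, limma adjusted p 0.580). vkg, the second collagen IV chain, was dim, with 5.80 and 5.98 in LacZ RNAi and 5.20 and 5.14 in CG9740 RNAi (log2 change -0.72, SE 0.17, limma adjusted p 0.580). Neither was called. The change of Col4a1 was -1.41 without CG9740 replicate 1 and -0.51 without CG9740 replicate 2. The list median per array was 9.80 and 9.81 in LacZ RNAi and 9.77 and 9.38 in CG9740 RNAi. The part of this difference between the CG9740 arrays in the collagen values was not tested.

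Other basement membrane genes were looked up after these values were seen. The laminin chains LanA, LanB1 and LanB2 had log2 changes of -0.20, -0.08 and -0.18, and SPARC, a collagen-binding protein, had -0.15. trol, the gene of perlecan, was measured by 8 probe sets that disagreed, with changes of -0.26 to 1.16 and a median of 0.56. At an unadjusted limma p under 0.05, 5 of them were higher and 1 lower, and none was called. Over all probe sets 4.04% were higher and 4.55% lower at this level. The highest, 1625116_at, read 9.30 and 8.53 in LacZ RNAi and 9.78 and 10.38 in CG9740 RNAi, while 1628566_at read 7.26 and 7.48, and 7.11 and 7.11. Ppn, which encodes papilin, was dim with a log2 change of -1.0.

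Glycolytic enzymes differed little. Of 11 probe sets for 10 genes, 2 had an unadjusted p under 0.05, both lower, as were 4.55% of all probe sets. Pfk, the phosphofructokinase gene, read 8.54 and 9.13 in LacZ RNAi and 8.23 and 8.35 in CG9740 RNAi (log2 change -0.54, limma adjusted p 0.580), and Hex-A, a hexokinase gene, had a change of -0.38. Markers of other cell types held no call: the medians were -0.04 for lamellocytes, -0.03 for crystal cells, -0.01 for neurons, 0.04 for muscle, 0.07 for germline and -0.04 for fat body.

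**Figure D5:**
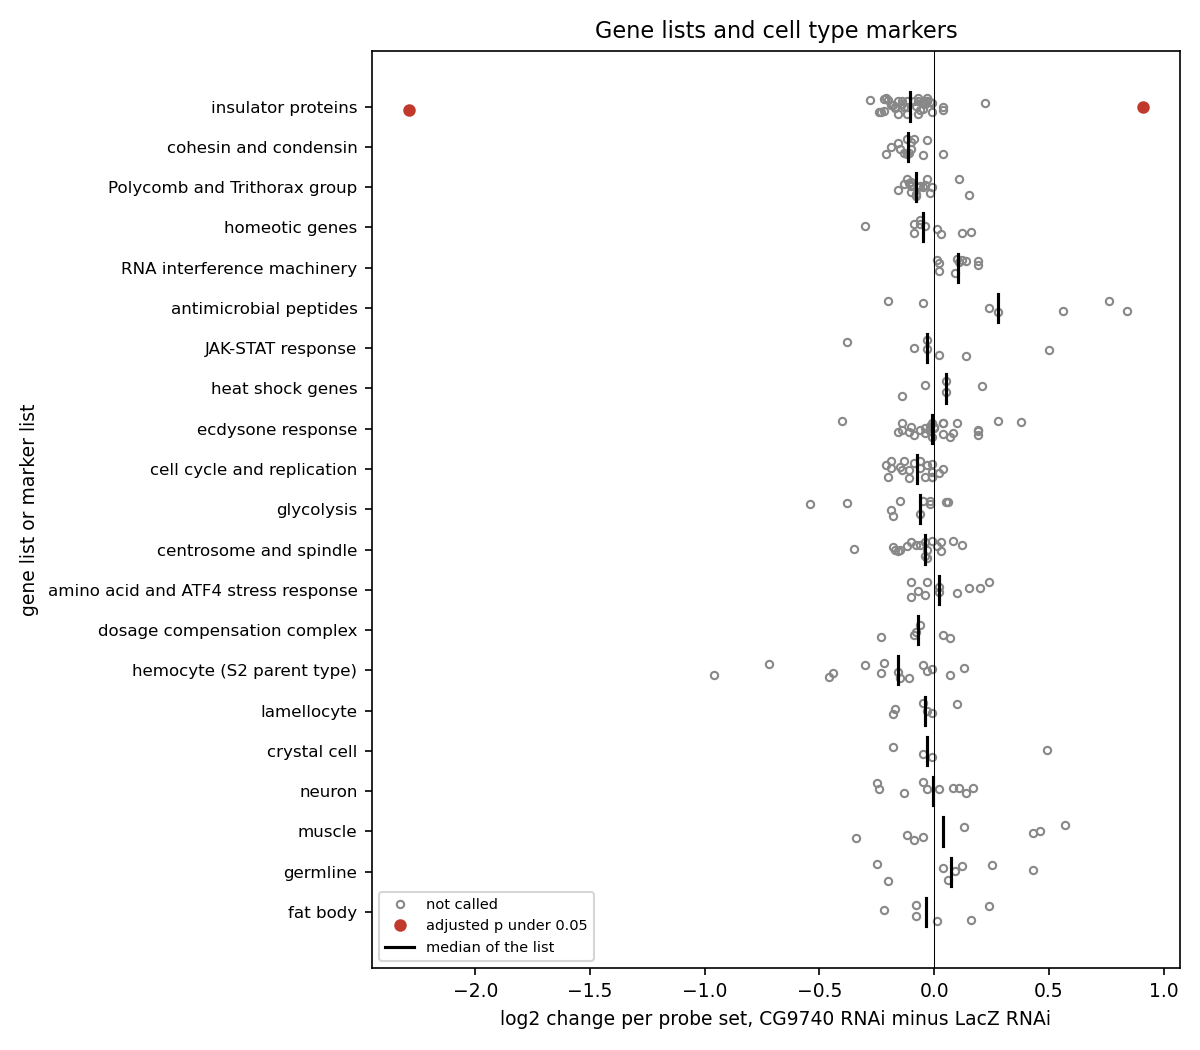
Log2 change per probe set (horizontal axis, CG9740 RNAi minus LacZ RNAi, n = 2 each) for 14 gene lists and 7 marker lists (vertical axis). Open points are probe sets without a call, red points are Ibf2 at -2.29 and Ibf1 at 0.91, and vertical bars are list medians, which lie between -0.16 and 0.28.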

How the data were processed

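The deposited table holds 1 log2 value per probe set and array, which the authors made with GCOS and RMA (robust multi-array average) according to their notes, that is, per the submitters' processing notes. Which RMA software and filters were used is not stated there. That the scale is log2 follows from the range of values. Probe-level data were not analysed here, and the number of arrays limits the precision. Of 18769 tested probe sets, GEO's platform annotation named 1 gene for 13646, several for 402 (left unnamed) and none for 4721. Symbols were updated by gene ID for 13543 through the RefSeq table of Release 6, which also gave arm and gene order.

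The 3 group means were estimated from all 6 arrays with limma 3.58.1 in R 4.3.3 (lmFit, contrasts.fit, eBayes), so the CP190 arrays enter the spread (degrees of freedom 3 residual, 5.05 prior). Tests were two-sided, with Benjamini-Hochberg adjustment over all tested probe sets and a threshold of 0.05. Named were all calls, up to 10 largest rises and 10 largest falls of at least 2-fold with groups apart and the higher mean above the limit of 6.07 (brightest of 27 Bacillus controls), all insulator proteins, and list members called or at least 1.5-fold different with groups apart. Members, rule and lists were chosen with earlier results of these data known, and lists described as looked up were added later. The fit was tested on simulated data. Arrays with equal replicate numbers had deviations from their group means that correlated at -0.316 for CG9740 with LacZ, -0.191 for CG9740 with CP190 and 0.155 for CP190 with LacZ, so the numbers were not taken to pair arrays. Alternatives changed the block, normalization, dim filter, variance model, threshold and arrays used. Leaving out 1 array left 1 array in its group, so the spread then came from the other groups alone.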

Additional observations from a re-analysis of the deposited data

How the results depend on the processing

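The 8 calls kept their direction in each alternative in which they were tested. Ibf2, CG12477 and eIF4E6 kept their call in each, except that CG12477 was left out by the limit on dim probe sets. The number of calls was 4 with the replicate block (all among the 8), 5 with the 4 arrays of both groups, 13 with a trended and robust variance, 1612 at an unadjusted p under 0.05, and 3 to 43 when 1 array was left out. The same-numbered arrays were not shown to be paired, and a replicate block with the CG9740 numbers crossed, chosen after seeing the data, gave 72 calls, including all 8 and 14 named probe sets that were not called without the block. Quantile normalization, median centring and keeping the control probe sets gave 8 calls, the limit on dim probe sets 6 and an adjusted p under 0.1 gave 9. The deposited arrays already had closely matched distributions, so renormalizing could change little. The log2 change of Ibf1 was 0.91 without its call under the replicate block and with 4 arrays, and 0.82 to 1.0 when 1 array was left out. Among named probe sets, signs turned in these insulator genes without a call: Elba3 (0.00 with quantile normalization, -0.10 to 0.03 with 1 array left out), CTCF probe set 1636485_at (0.00 with median centring, -0.25 to 0.21), Trl (-0.12 to 0.07), dwg (-0.02 to 0.10) and Elba2 (-0.05 to 0.14). Taking 1 probe set per gene moved no list median by more than the spread between replicates, but turned the sign of the medians of muscle (-0.07) and neuron (0.05) markers and of the eIF4E family (-0.06 to 0.03). For these shifts the cause was not tested. Folds of dim probe sets are limited by background.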
